A study of Mus musculus with 4 samples.

Results

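Mouse fibroblasts that lack most CH1 domains of the coactivators CBP and p300 were compared after 6 h in hypoxia (0.1% oxygen) and 6 h in normoxia (21% oxygen), with 1 array for each condition. Genes were taken by brightness and not by change. Of 12393 genes measured by a probe set with 1 gene symbol, the 4358 whose brighter tri-CH1 array had a signal of at least 500 were described. The signal is the linear, array-scaled brightness of a probe set, which is a group of short probes for 1 transcript. The cells, called tri-CH1, were primary fibroblasts from e14.5 embryos that carry a deletion of the CH1 domain in both p300 alleles and in 1 CBP allele, so that 1 CBP allele keeps its CH1 domain. Wild-type primary fibroblasts of the same embryonic day, also with 1 array in normoxia and 1 in hypoxia, are given beside them. All 4 cultures were subconfluent and were kept at 37 °C with 5% carbon dioxide, and each received fresh serum medium, equilibrated overnight to its oxygen level, as the 6 h began. The labels do not say how many embryos each culture came from.

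CBP and p300 are large acetyltransferases that transcription factors recruit to enhancers and promoters. Their CH1 domain, also called TAZ1, is a zinc-bound docking surface for the activation domains of several factors, among them HIF-1α, CITED2 and ETS1. In oxygenated cells, prolyl hydroxylases mark the HIF α subunits for destruction through the VHL ubiquitin ligase, and an asparaginyl hydroxylase blocks their contact with CH1. When oxygen falls, both reactions slow, HIF accumulates and switches on glycolysis, angiogenesis and mitochondrial adaptation. Hypoxia is also known to act on protein synthesis, sterol and metal sensing and the cell cycle. The genes outside a list of known HIF targets are described here by function, and whether they depend on HIF was not tested. The list need not be complete, so a gene outside it may still be a HIF target.

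No value has a replicate error, because each condition has 1 array, and their number limits the precision. A gene is said to have risen or fallen where its hypoxia and normoxia signals differed 2-fold or more, counting any signal below 200 as 200; where the dimmer signal lay below 200 the fold is a bound and is given as at least that value. No test was possible. The only internal spread is that between probe sets of the same gene, which had an SD of 0.29 (log2) for the tri-CH1 change over 1351 genes with 2 usable probe sets and of 0.24 for the wild-type change over 1339 genes. The scale factors of the tri-CH1 arrays were 10.3 in normoxia and 8.70 in hypoxia, and the background after scaling was 343 and 393, with an SD across the array of 9.27 and 40.4, so that the hypoxia array had the less even background, whose part in the results was not tested. The wild-type normoxia array came from a different array lot than the other 3. A signal of at least 500 was reached by 6328 and 6226 of 22690 probe sets. Fibroblast markers were present as labelled, with 14 of 16 at 500 or more on each tri-CH1 array and a summed signal of 176994 in normoxia and 175036 in hypoxia. Of the markers of other cell types, 0 of 10 endothelial, 0 of 10 neural and glial on the array, 0 of 8 cartilage and 0 of 4 erythroid genes on the array reached 500 on either tri-CH1 array, as did 2 of 10 myeloid genes on both and 1 of 12 skeletal muscle genes in normoxia. Crebbp, the gene of CBP, had signals of 61.3 and 87.7 in tri-CH1 and of 82.8 and 29.6 in wild type, too dim to count, and a probe set need not lie in the deleted part, so it checks nothing. The tri-CH1 arrays were alike in sex-linked genes, with Xist at 318 in normoxia and 263 in hypoxia, against 3096 and 3523 in the wild-type arrays, and the Y-linked Eif2s3y at 242 and 363 against 4.30 and 22.8. Any side-by-side with wild type therefore also sets apart cultures that differ in these genes, and their part was not tested.

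Hypoxia raised 139 of the 4358 genes in tri-CH1 cells (3.19%) and lowered 43 (0.987%). At the lower limit of 1.5-fold, 373 genes were higher (8.56%) and 277 lower (6.36%), and the median log2 change of all genes was -0.039, with 1998 genes above 0 and 2359 below it. In wild-type cells 126 of 4125 genes rose (3.05%) and 49 fell (1.19%), with 285 (6.91%) and 281 (6.81%) past 1.5-fold. Known HIF targets, a list of 81 genes of which 57 counted, held 43 of the tri-CH1 rises and 0 of the falls, with a median log2 change of 1.89. The other 96 rises, among 4301 genes outside that list (2.23%), and the 43 falls (1.00%) are described below. Outside the list, 82 of 4068 genes rose (2.02%) and 49 fell (1.20%) in wild type. Of the 96 rises, 25 belonged to at least 1 of 42 functional lists and 71 to none; of the 43 falls, 17 and 26 did. The 10 housekeeping genes that counted held 0 rises and 0 falls, with a median of -0.13. The limits cut through a continuous range: Calml4 at 1.00 and the HIF target Aldoa at 1.01 were just inside the limit for a rise, Sgk1 at 0.998 and Mfhas1 at 0.993 just outside it, Ada at -1.01 was just inside the limit for a fall, and Ppbp at -0.99 and Slc9a3r1 at -0.98 just outside. Brd3, at a signal of 500, was the dimmest gene to count and Dgat1, at 499.9, the brightest left out.

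**Figure D1:**
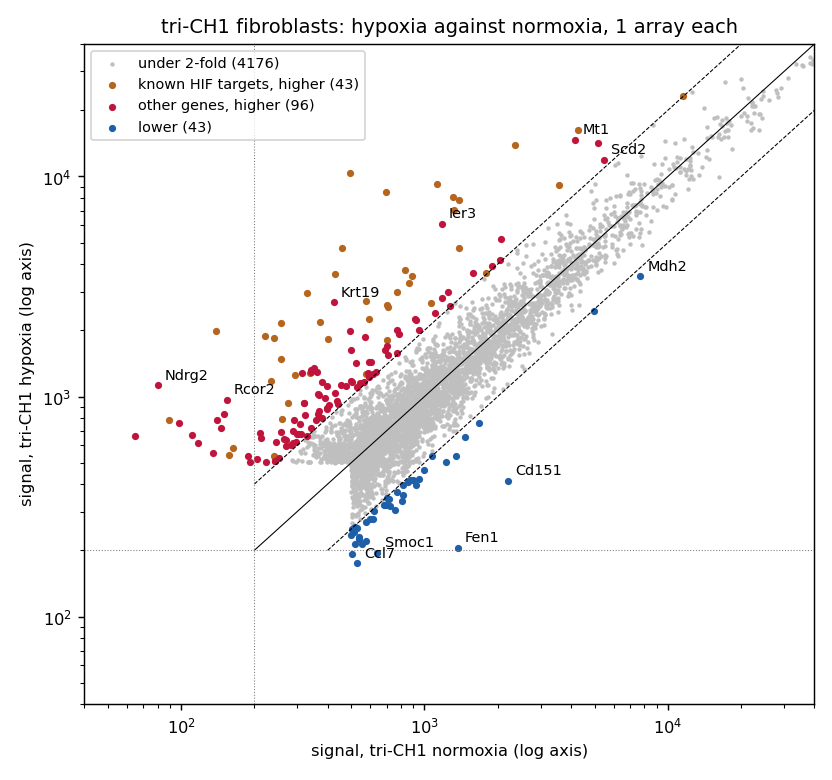
Signals of the 4358 genes in tri-CH1 normoxia (x axis) and tri-CH1 hypoxia (y axis), both log axes, with 1 point per gene; the solid line marks equal signals, dashed lines 2-fold, and dotted lines the floor of 200. The 43 falls lie mostly at signals under 1000, while the rises outside the known HIF targets reach 14704 in hypoxia, for the metallothionein Mt1.

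The falls were dimmer than the rises. Among genes outside the known HIF targets, the 2123 whose brighter signal lay between 500 and 1000 held 46 rises and 34 falls. The 1192 genes between 1000 and 2000 held 34 rises and 6 falls, the 566 between 2000 and 4000 held 10 and 1, and the 420 at 4000 or more held 6 and 2. The SD of the log2 change over genes was 0.45 in the dimmest of these classes and 0.37 in the brightest.

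Krt19, a type I keratin of simple epithelia, had the largest rise outside the list of known HIF targets among genes with both tri-CH1 signals above the floor. Its signal went from 423 in normoxia to 2676 in hypoxia in tri-CH1, a 6.32-fold rise, and from 145 to 3881 in wild type, at least 19.4-fold. The signal was high on both hypoxia arrays and low on both normoxia arrays. Ndrg2, of the N-myc downstream-regulated family, went from 80.3 to 1124 and rose at least 5.62-fold, a bound that cannot be ranked below Krt19; its wild-type signals were 49.8 and 447, which left it under 500 there. The stress-inducible survival gene Ier3 went from 1177 to 6106, 5.19-fold, and from 2413 to 9047 in wild type, 3.75-fold.

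Mgarp, which takes part in mitochondrial transport and morphology, went from 150.3 to 833, at least 4.17-fold, and in wild type from 98.0 to 628, at least 3.14-fold. Nampt, the rate-limiting enzyme of NAD salvage, went from 492 to 1985, 4.03-fold, and in wild type from 359 to 1639, 4.57-fold. The mitochondrial malic enzyme gene Me2, whose product makes pyruvate from malate, went from 343 to 1324, 3.86-fold, and in wild type from 268 to 1108, 4.13-fold. All 3 genes were high on the hypoxia arrays of both genotypes. Pgp, the phosphatase that clears 2-phosphoglycolate and other side products of glycolysis, rose 3.25-fold, from 572 to 1860.4, and a second probe set gave a log2 change of 1.33. Slc27a3, of the fatty acid transport family, went from 141 to 782, at least 3.91-fold, while its wild-type signals of 12.3 and 147 were both under the floor.

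Rcor2, a corepressor of the CoREST family that works with histone demethylase LSD1, went from 154 to 967, at least 4.84-fold, against 219.7 and 419 in wild type. Sap30, a subunit of the Sin3 histone deacetylase complex, went from 341 to 1298, 3.80-fold, and in wild type from 298 to 1434, 4.82-fold. The small Maf protein gene Maff went from 111 to 669, at least 3.34-fold, and in wild type from 626 to 1412, 2.26-fold. Foxo3, a forkhead factor of stress resistance, rose 2.79-fold, with 1.48 on the log2 scale, and another probe set gave 0.69. Maff was brighter in wild type than in tri-CH1 at both oxygen levels, whereas Rcor2 was brightest in tri-CH1 hypoxia. Eid1, an inhibitor known to bind p300 and to dampen its acetyltransferase activity, was singled out after its values were seen: its signal went from 914 to 2254, 2.47-fold, and its other probe sets gave log2 changes of 1.58 and 1.32, against 0.48, 0.53 and 0.45 in wild type for the 3 probe sets in the same order.

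The other large rises were of genes with varied roles. Dipk2a, which encodes a secretory-pathway protein of the kinase-like DIPK2 family, rose 4.10-fold, from 313 to 1282, with 1.73 on the log2 scale for its second probe set. Rgcc, a cell cycle regulator first known from complement responses, went from 147 to 716, at least 3.58-fold, and in wild type from 234 to 1170.3, 4.99-fold. Fam117b rose 3.57-fold. Plekha2, a phosphoinositide-binding adaptor, rose 3.26-fold with 2.05 for its second probe set. The trans-Golgi clathrin adaptor Gga1 rose at least 3.29-fold, and Gopc, a Golgi PDZ protein, 2.92-fold, with 1.65 for its other probe set. Pvr, a nectin-like adhesion receptor, rose 3.05-fold, and 4 other probe sets gave log2 changes from 0.34 to 0.97. Nrtn, the GDNF-family ligand neurturin, rose 3.23-fold, from 210.4 to 681, while its wild-type signals of 282 and 253 stayed under 500. Syce2, of the meiotic synaptonemal complex, rose 3.03-fold from 213 to 645, and Spg21, which encodes the endosomal protein maspardin, rose 2.81-fold. Slc27a3, Pkp1, Rgcc, Maff, Gga1, Nrtn, Lce1h and Syce2 were under 2-fold with a floor of 400. Their hypoxia signals, from 612 to 782, were too low to reach 2-fold over that floor, so the setting could not have kept them.

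**Figure D2:**
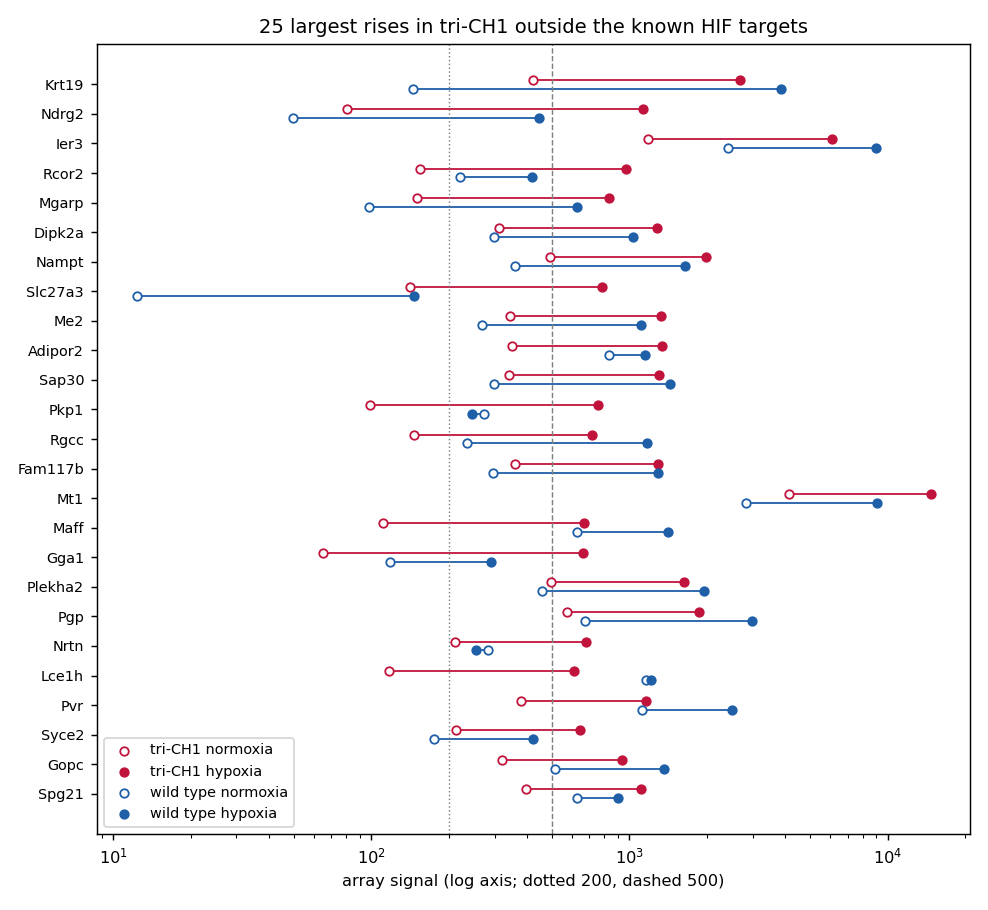
Signals of the 25 genes outside the known HIF targets with the largest tri-CH1 rises once signals below 200 count as 200, on a log axis, 1 line per genotype (red tri-CH1, blue wild type), from normoxia (open circle) to hypoxia (filled circle). Krt19 ran from 423 to 2676 in tri-CH1 and from 145 to 3881 in wild type, while the wild-type signals of Pkp1 and Nrtn were no higher in hypoxia than in normoxia.

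The promoters of these genes were read to show where the letters of the HIF binding core lie. Each window holds 250 bases before and 50 bases after the annotated transcription start, from RefSeq on GRCm38.p6, written along the sense strand of the gene. The capitals mark ACGTG or its reverse complement CACGT, which overlap as CACGTG. Bnip3, a mitophagy receptor and the most strongly raised HIF target (chr7:138909457-138909756, minus strand), is shown for comparison with Rcor2 (chr19:7267144-7267443, plus strand), Mgarp (chr3:51396498-51396797, minus strand), Nampt (chr12:32820085-32820384, plus strand) and Sap30 (chr8:57487811-57488110, minus strand).
Bnip3: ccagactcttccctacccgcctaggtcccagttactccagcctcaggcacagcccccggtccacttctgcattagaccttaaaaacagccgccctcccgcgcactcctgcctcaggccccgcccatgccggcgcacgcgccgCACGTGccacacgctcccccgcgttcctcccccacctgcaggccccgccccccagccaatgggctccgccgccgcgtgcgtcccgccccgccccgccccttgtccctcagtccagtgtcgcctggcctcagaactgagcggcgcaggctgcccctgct
Rcor2: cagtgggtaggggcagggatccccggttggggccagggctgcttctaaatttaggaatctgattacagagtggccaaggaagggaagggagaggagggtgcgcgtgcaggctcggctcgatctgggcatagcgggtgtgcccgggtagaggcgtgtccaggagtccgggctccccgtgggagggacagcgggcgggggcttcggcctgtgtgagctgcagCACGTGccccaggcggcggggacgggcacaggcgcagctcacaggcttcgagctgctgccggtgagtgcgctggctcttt
Mgarp: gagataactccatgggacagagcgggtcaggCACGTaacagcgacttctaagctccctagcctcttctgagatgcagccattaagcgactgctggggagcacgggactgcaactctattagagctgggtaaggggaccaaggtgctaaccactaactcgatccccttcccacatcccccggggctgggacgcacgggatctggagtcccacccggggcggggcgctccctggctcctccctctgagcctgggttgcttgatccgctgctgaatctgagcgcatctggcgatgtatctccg
Nampt: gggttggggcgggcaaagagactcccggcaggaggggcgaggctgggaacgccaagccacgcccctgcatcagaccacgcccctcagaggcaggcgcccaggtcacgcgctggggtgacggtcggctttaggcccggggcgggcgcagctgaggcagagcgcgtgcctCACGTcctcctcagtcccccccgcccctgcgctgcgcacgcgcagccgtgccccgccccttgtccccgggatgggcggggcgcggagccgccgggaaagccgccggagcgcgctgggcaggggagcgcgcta
Sap30: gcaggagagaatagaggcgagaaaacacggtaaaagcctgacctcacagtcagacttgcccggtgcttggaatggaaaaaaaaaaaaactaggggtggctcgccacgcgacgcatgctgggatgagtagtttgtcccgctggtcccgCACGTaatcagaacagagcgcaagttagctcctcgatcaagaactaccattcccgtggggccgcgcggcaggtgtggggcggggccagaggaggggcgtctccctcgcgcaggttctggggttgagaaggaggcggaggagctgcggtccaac
Bnip3 and Rcor2 hold the palindrome CACGTG, which starts 108 bases before the start in Bnip3 and 30 bases before it in Rcor2. The single match began 219 bases before the start in Mgarp, 82 in Nampt and 103 in Sap30. A window matched 75 of the 96 rises outside the list of known HIF targets, and 33 of them (44.0%) held ACGTG on either strand. The share was 65.8% (25 of 38) for HIF targets that rose, 38.2% (13 of 34) for the falls and 33.2% (1193 of 3593) for all counting genes with a window. These shares count genes, where any window of the gene may match. Counted by window, it was 19.6% of the 32851 windows in the whole table. A match is a run of letters and not evidence of binding. Krt19 and the other unmatched rises had no entry in the table.

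The metallothionein genes were the brightest of the rises outside the list of known HIF targets. They encode small cysteine-rich proteins that bind zinc and copper, and their transcription is controlled by the metal-sensing factor MTF-1. The signal of Mt1 went from 4150.3 to 14704 in tri-CH1, 3.54-fold, and from 2821 to 9124 in wild type, 3.23-fold. Its probe set has the suffix s, a kind that may bind related transcripts, and whether it separates Mt1 from Mt2 was not tested. The other Mt1 probe set, at 126 and 154 in tri-CH1, was under the floor. The signal of Mt2 went from 5166 to 14195 in tri-CH1, 2.75-fold, and from 2654 to 8110 in wild type, 3.06-fold. Both genes were high on the hypoxia array of either genotype, and in tri-CH1 they were brighter than in wild type at both oxygen levels. The other 15 of 17 counting genes of metal handling held 0 rises and 0 falls, and the median of the 17 was -0.08. The zinc importer gene Slc39a14 went the other way, from 794 to 405, -0.97 on the log2 scale, against 0.49 in wild type. Fth1, the ferritin heavy chain, was at -0.38. The promoters of Mt1 (chr8:94178839-94179138, plus strand) and Mt2 (chr8:94172368-94172667, plus strand) are shown in the same window and build because they carry the letters of the metal response core, with TGCACNC and TGCGCNC on either strand in capitals.
Mt1: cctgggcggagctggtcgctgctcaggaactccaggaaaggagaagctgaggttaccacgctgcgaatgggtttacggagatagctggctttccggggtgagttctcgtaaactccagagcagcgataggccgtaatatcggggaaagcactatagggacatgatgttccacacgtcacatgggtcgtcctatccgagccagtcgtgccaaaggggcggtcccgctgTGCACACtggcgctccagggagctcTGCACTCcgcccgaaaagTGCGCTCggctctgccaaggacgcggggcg
Mt2: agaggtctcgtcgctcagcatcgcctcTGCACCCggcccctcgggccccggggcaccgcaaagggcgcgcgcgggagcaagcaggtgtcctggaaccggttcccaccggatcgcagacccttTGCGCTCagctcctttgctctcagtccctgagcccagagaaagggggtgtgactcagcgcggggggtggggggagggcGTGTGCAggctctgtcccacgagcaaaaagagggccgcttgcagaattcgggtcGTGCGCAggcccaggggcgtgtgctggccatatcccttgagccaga
Mt1 holds 3 such cores and Mt2 holds 4. Of all windows in the table, 25.7% hold at least 1. Counted by gene, where any window of the gene may hold the core, 41.9% of counting genes with a window do. So did 38 of 75 rises (50.7%), 21 of 38 HIF-target rises (55.3%) and 12 of 34 falls (35.3%).

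Genes of cholesterol and fatty acid synthesis lay mostly above 0 and held several rises. Of 28 that counted, 6 rose and 0 fell, and 11 were past 1.5-fold higher and 0 lower. Over all genes 3.19% rose and 8.56% were past 1.5-fold higher. A change above 0 was seen in 25 of the 28, against 1998 of all 4358 genes. The median log2 change was 0.46, against -0.039 for all genes. Squalene epoxidase, encoded by Sqle and itself an oxygen-using enzyme, went from 1253 to 2987, 2.38-fold. The mevalonate enzyme gene Mvd rose 2.54-fold, from 324 to 825, although its other probe set gave 0.62. Squalene synthase (Fdft1) went from 605 to 1442, 2.38-fold, lanosterol synthase (Lss) from 588 to 1278, 2.17-fold, and the isopentenyl isomerase Idi1 from 774 to 1582, 2.04-fold. The stearoyl desaturase gene Scd2, another oxygen-using enzyme, went from 5440 to 11922, 2.19-fold, and its other probe sets gave log2 changes of 1.37 and 1.65. Their wild-type log2 changes were 1.03 for Sqle, 0.33 for Mvd, 0.57 for Fdft1, 1.00 for Lss, 1.10 for Idi1 and 0.72 for Scd2. Stard4, a sterol carrier, was at 0.92 and the HMG-CoA synthase Hmgcs1 at 0.91. The wild-type list had 3 rises among 26 genes and a median of 0.33. Adipor2, an adiponectin receptor placed in the list of lipid uptake and oxidation, rose 3.82-fold, from 352 to 1341, against 831 and 1152 in wild type; of the other 21 genes of that list none rose or fell, and its carnitine palmitoyltransferase Cpt1a was at -0.77.

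Immediate early genes, which respond within minutes to hours to serum and stress, had 4 rises and 0 falls among 25, with 8 past 1.5-fold higher, 0 lower and a median of 0.31, against 3.19% rises and 8.56% past 1.5-fold higher over all genes. Besides Ier3 and Maff, the MAP kinase phosphatase Dusp1 rose 2.38-fold, from 687 to 1635, and the zinc-finger factor Klf6 rose 2.18-fold, from 705 to 1536, with other probe sets at 1.02 and 0.25. In wild type Dusp1 was already at 2973 in normoxia and 3486 in hypoxia, a change of 0.23. Klf4 at 0.97, Rhob at 0.85, and Jun and Ccn2, both at 0.67, stayed under 2-fold. Every culture had a change of medium as the 6 h began. The EGF-family ligand Hbegf, in the list of growth factors and their receptors, rose 2.30-fold, from 1581 to 3643, with 1.18 for a second probe set; the other 30 counting genes of that list held 0 rises and 0 falls, with Fgfr1 at 0.82 and the EGF-family ligand Ereg at -0.70.

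Inflammatory genes lay mostly below 0. Of 13 counting chemokine and NF-kB genes, 0 rose, 3 fell, 6 were past 1.5-fold lower and 11 lay below 0, with a median of -0.43; of all 4358 genes, 0.987% fell, 6.36% were past 1.5-fold lower and 2359 lay below 0. The monocyte chemokine genes Ccl7 and Ccl2 went from 530 to 175, at least 2.65-fold lower, and from 720.3 to 316, 2.28-fold lower; in wild type they went from 1115 to 158, at least 5.57-fold lower, and from 514 to 135, at least 2.57-fold lower. Both were low on both hypoxia arrays. Vcam1, a leukocyte adhesion receptor, fell 2.18-fold in tri-CH1, from 698 to 320.3, and its other probe sets gave -1.63 or lower, with the hypoxia signal under the floor, and -0.51; in wild type the 3 probe sets gave 0.19, 0.44 and 0.44. Vcam1 was thus low on the tri-CH1 hypoxia array only, by each of its probe sets. Cebpd at -0.97 and Irf1 at -0.84 had the same sign in tri-CH1. Ptgs2, the inducible cyclooxygenase, was the exception above 1.5-fold, going from 2195 to 4017, 0.87 on the log2 scale, and 0.74 in wild type. Of 5 interferon-inducible genes that counted, the class I antigen gene H2-K1 rose 2.52-fold, while its other probe sets gave 1.28, 0.22 and -0.16 and related class I genes share sequence with it, so its rise is uncertain. Ifitm2 was at -0.48 and Ifitm3 at -0.35.

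Replication genes lay mostly below 0. Of 28 genes of DNA replication and repair, 0 rose, 2 fell, 10 were past 1.5-fold lower and 0 higher, and 23 lay below 0, with a median of -0.39, against 6.36% of all genes past 1.5-fold lower and 2359 of 4358 below 0. The flap endonuclease Fen1, which trims Okazaki fragments, went from 1368 to 206, 6.65-fold lower. On the same probe set in wild type it went from 906 to 205, 4.41-fold lower. It was the largest fall in tri-CH1, but a dimmer probe set, at 495 and 350.2, gave only -0.50, and -0.55 in wild type. The probe set used has the suffix x, a kind that may bind related transcripts. The licensing factor Cdt1 went from 1466 to 657, 2.23-fold lower, with -0.71 for a second probe set. The helicase subunit genes Mcm2 at -0.88, Mcm5 at -0.69, Mcm7 at -0.67 and Mcm3 at -0.65, the hemimethylation reader Uhrf1 at -0.76 and the single-strand binding protein Rpa1 at -0.64 stayed under 2-fold. The wild-type values of Mcm2, Mcm5, Mcm7 and Mcm3 were -0.42, -0.34, -0.45 and -0.19. Of 42 genes of mitosis, Cenpq, a centromere protein, fell 2.59-fold, from 554 to 214, and 7 were past 1.5-fold lower against 1 higher. Over all genes 0.987% fell and 6.36% were past 1.5-fold lower. Cdc20 was at -0.88, Tpx2 at -0.83 and Birc5 at -0.70. Of 10 counting G1 regulators 0 rose or fell: the inhibitors Cdkn1b at 0.91 and Cdkn1a at 0.90 were the highest and the kinase Cdk2 at -0.98 the lowest. Nucleotide and one-carbon enzymes had a median of -0.32 over 25 genes, with the tetrahydrofolate enzyme Mthfd1 2.48-fold lower on the probe set used but at 1.59, the other way, on another. The CTP synthase Ctps was at -0.71 and the spermidine synthase Srm at -0.74. In such bulk RNA, fewer cycling cells and less RNA of these genes per cell cannot be told apart.

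Ribosome assembly genes lay mostly below 0 as well. Of 63 counting genes, 0 rose, 4 fell, 12 were past 1.5-fold lower and 0 higher, and 53 lay below 0, with a median of -0.28, against 0.987% falls, 6.36% past 1.5-fold lower and 2359 of 4358 below 0 over all genes. In wild type 7 of 62 fell and the median was -0.40. Pop5, a subunit of RNase MRP and RNase P, went from 575 to 221, 2.61-fold lower. The snoRNP core gene Nop58 went from 894 to 416, 2.15-fold lower, and in wild type from 567 to 261, 2.17-fold lower. Nol11, of the small-subunit processome, fell 2.14-fold, though its dimmer probe sets gave -0.37 and -0.32, and the large-subunit factor Nop16 fell 2.03-fold. Bop1 at -0.84, Pwp2 at -0.85 and Nop56 at -0.70 followed. All 3 of these genes lay below 0 in wild type as well, at -0.31, -0.73 and -1.08. The RNA exosome, which trims ribosomal precursors, was split, with Exosc1 2.10-fold lower and the cofactor Mphosph6 2.22-fold higher, from 304 to 675, among 10 genes. Cytosolic ribosomal protein genes held 0 rises and 0 falls among 41, with a median of -0.13 and with Rps27l, at -0.68, and Rps6, at -0.59, past 1.5-fold lower; in wild type the median was 0.07. Translation factors had 0 rises and 0 falls among 38 and a median of -0.04, which became 0.02 with scaling to the same median; the cap-binding inhibitor gene Eif4ebp1 was the highest, going from 3514 to 6104, 0.80. The 18 aminoacyl-tRNA synthetases had a median of 0.09, with the bifunctional Eprs highest at 0.74.

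**Figure D3:**
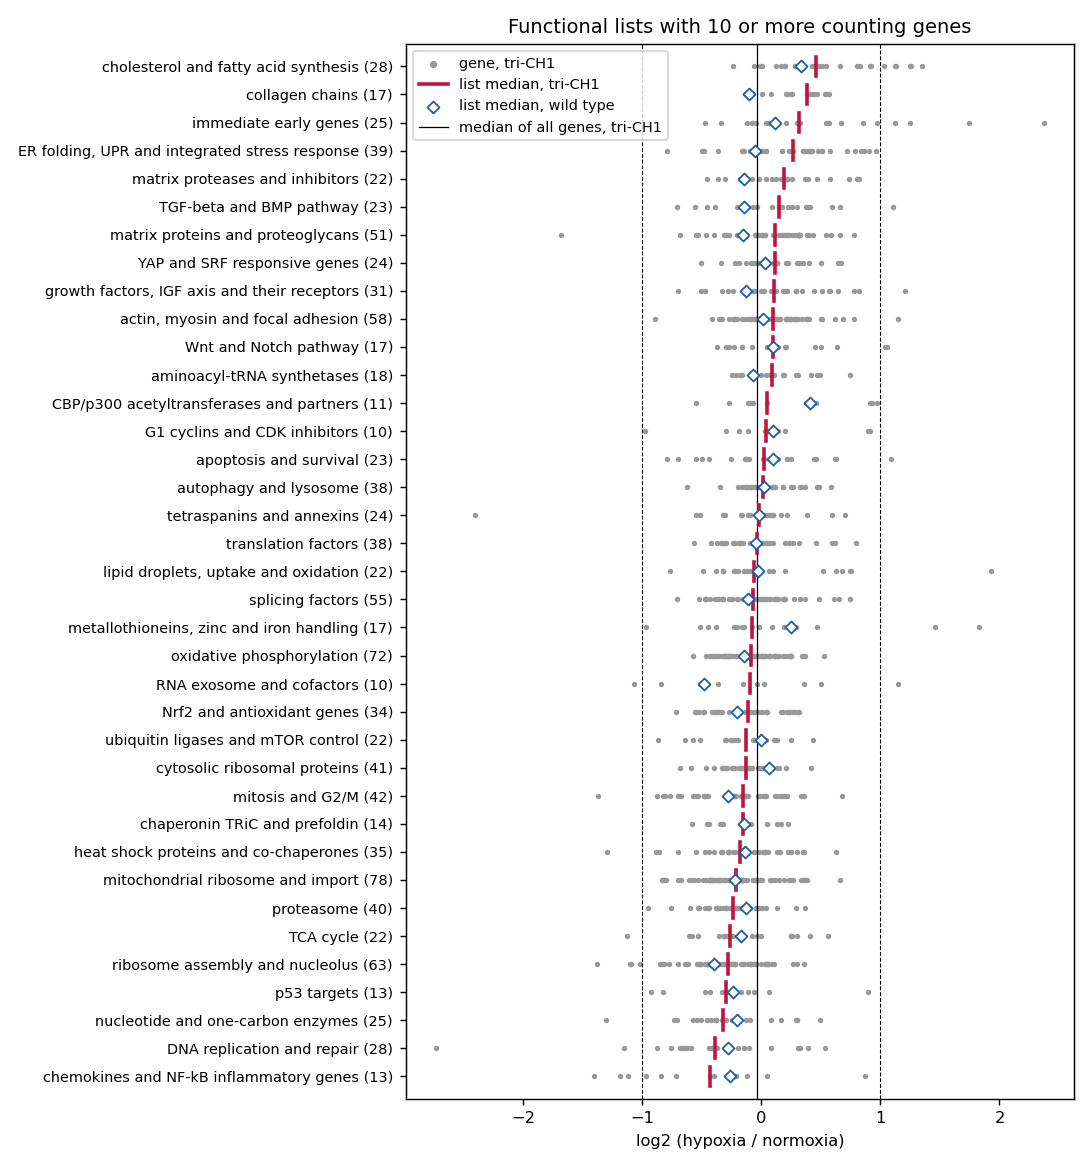
Log2 change from normoxia to hypoxia (x axis) of each counting tri-CH1 gene (grey points) in 37 functional lists with at least 10 such genes (number in brackets), with the tri-CH1 list median (red bar), the wild-type list median (blue diamond) and the median of all genes (black line). Medians ran from 0.46 for cholesterol and fatty acid synthesis to -0.43 for chemokines and NF-kB genes, and dashed lines mark 2-fold.

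Genes of the respiratory chain and the mitochondrial ribosome stayed under 2-fold. The 72 counting genes of oxidative phosphorylation held 0 past 1.5-fold in either direction and had a median of -0.09, with Ndufb8 lowest at -0.58 and Ndufv3 highest at 0.53. Of 78 genes of the mitochondrial ribosome and import machinery, 0 rose or fell, 8 were past 1.5-fold lower and 1 higher. Over all genes 6.36% were past 1.5-fold lower and 8.56% higher. Below 0 lay 62 of the 78, against 2359 of all 4358 genes. The median was -0.22 in tri-CH1 and also -0.22 in wild type, and Mrpl12, Mrpl33 and Mrps11 were each at -0.83. Of 22 citric acid cycle and related genes only the malate dehydrogenase Mdh2 fell, against 0.987% falls over all genes. Its signal went from 7710 to 3520, 2.19-fold, but its other probe set went from 6610 to 5855, -0.17. The fall of Mdh2 therefore rests on 1 of its probe sets. Coa6, an assembly factor of cytochrome oxidase that is in no list, fell 2.41-fold, from 808 to 335.

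Protein folding and breakdown genes were mostly under 2-fold. Of 35 heat shock and co-chaperone genes, Hsph1, the HSP110 exchange factor, fell 2.45-fold, from 1230 to 502, with -0.99 for its second probe set and a 2.03-fold fall in wild type. Cacybp at -0.88 and Hspa8 at -0.70 were lower in the same direction, Dnajb4 at 0.63 was higher, and the median was -0.18. The chaperonin TRiC and prefoldin genes had 0 past 1.5-fold among 14. The proteasome had 0 rises and 0 falls among 40, but 35 lay below 0, against 2359 of all 4358 genes, with a median of -0.24 in tri-CH1 and -0.13 in wild type; the base ATPase gene Psmc5 was lowest, going from 2567 to 1327, -0.95. Autophagy and lysosome genes had a median of 0.01 over 38 genes, whose sign turned with quantile normalization.

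Genes of endoplasmic reticulum stress and the integrated stress response, the program that limits translation when amino acids or folding capacity run short, held 0 rises and 0 falls among 39, but 6 were past 1.5-fold higher against 1 lower and 28 lay above 0, with a median of 0.26, against 8.56% of all genes past 1.5-fold higher and 1998 of 4358 above 0. In wild type the median was -0.05 and 14 of 38 lay above 0. Ddit3, the transcription factor CHOP, went from 1238 to 2421, 0.97, and in wild type from 1449 to 1414, -0.04. Ppp1r15a, the GADD34 phosphatase subunit, was at 0.91, and the amino acid transporters Slc1a4, Slc1a5 and Slc7a5 were at 0.86, 0.84 and 0.79. Slc7a5 went from 925 to 1597 in tri-CH1 and from 1163 to 684 in wild type, in opposite directions. Nupr1 was at 0.72 against -0.06 in wild type. The chaperone gene Hyou1 was the one past 1.5-fold lower, at -0.79. Nrf2 and antioxidant genes, 34 in number, had 0 rises and 0 falls and a median of -0.12; Gstm2, at -0.71, was the lowest. Of 13 p53 targets 0 rose or fell and 11 lay below 0, against 2359 of all 4358 genes, with a median of -0.29, Cdkn1a aside at 0.90.

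Genes of the coactivators and of oxygen-dependent chromatin enzymes were also read. Of 11 counting genes of acetyltransferases and CH1-binding or other partners, 0 rose or fell in tri-CH1. Ets1, a CH1 partner, was at 0.97, Vhl at 0.93 and Mef2a at 0.91, Hif1a was at 0.38 and the acetyltransferase Kat2a at -0.55; the wild-type value of Vhl was 1.47. Of 9 counting genes of demethylases and other 2-oxoglutarate dioxygenases, enzymes that use oxygen directly, 2 rose, against 3.19% over all genes. The histone demethylase Kdm3a, itself a known HIF target, went from 259 to 789, 3.04-fold. Outside the known HIF targets only Jmjd6 rose, from 594 to 1233, 2.08-fold, with 0.80 for its second probe set. In wild type Kdm3a went from 283 to 1275 and Jmjd6 from 769 to 2048, so both were high on both hypoxia arrays. Kdm5b was at 0.61 and Alkbh5 at 0.58.

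Keratin and epithelial adhesion genes changed in both directions. Of 33 on the array only 6 counted, of which 3 rose and 1 fell, against 3.19% rises and 0.987% falls over all genes. Besides Krt19, the desmosomal plakophilin genes Pkp1 and Pkp2 went from 98.5 to 757, at least 3.79-fold, and from 310.2 to 674, 2.17-fold, with 1.34 as a lower bound for another Pkp2 probe set. Krt8, the type II partner of simple-epithelial keratin pairs, went from 502 to 192, at least 2.51-fold lower. The wild-type signals were 273 and 244 for Pkp1, 810 and 1427 for Pkp2 and 398 and 332 for Krt8. Of 12 epithelial marker genes, which include Krt8 and Krt19, 1 reached 500 on each tri-CH1 array and 9 were under 200 on each, with Cdh1 and Epcam among them; the summed signal went from 2121 in normoxia to 4154 in hypoxia. Lce1h, of the late cornified envelope, went from 117 to 612, at least 3.06-fold, while in wild type it was at 1157 and 1212; its probe set may also bind related transcripts.

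Collagen genes lay mostly above 0 but under 2-fold. All 17 counting collagen chains were under 1.5-fold, but 15 lay above 0, against 1998 of all 4358 genes, and the median was 0.38, against -0.10 over 18 genes in wild type, where 7 lay above 0. Col12a1 went from 2073 to 3066, 0.56, Col5a3 was at 0.55 and Col6a3, from 4991 to 7211, at 0.53; their wild-type values were 0.08, -0.37 and -0.15. Each of these values is under 2-fold, and the difference between genotypes was not tested. Of 51 other matrix genes, 1 fell and 0 rose, with a median of 0.12 against -0.16 in wild type: Smoc1, a calcium-binding matricellular protein, went from 641 to 195, at least 3.20-fold lower, and in wild type from 369.8 to 384. Fibronectin (Fn1) went from 14068 to 20541, 0.55, and lumican (Lum) was at 0.78. Among 22 matrix proteases and inhibitors 0 rose or fell, with Timp3 at 0.82 and the sheddase Adam17 at 0.80. Actin and adhesion genes had a median of 0.10 over 58 genes, with the LIM adaptor Lims2 2.21-fold higher, from 269 to 594, and Acta1 at -0.89. YAP and SRF responsive genes had 0 rises and 0 falls among 24.

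Rises and falls in the signalling lists numbered 2 or fewer per list, beside 3.19% rises and 0.987% falls over all genes. Pmepa1, an inhibitor of TGF-beta signalling, rose 2.15-fold, from 1109 to 2389, but a second probe set gave -0.05, and Id3 was at -0.71 and Smad7 at 0.66 among 23 genes of that pathway. In the Wnt and Notch list, of 17 genes, the receptor gene Fzd1 went from 253 to 523, 2.07-fold, and the Notch-family ligand gene Dlk1 from 630 to 1293, 2.05-fold, against 596 and 549 for Dlk1 in wild type. The apoptosis list of 23 held 1 rise, Bok, a BCL-2 family member, from 283 to 603, 2.13-fold, against 657 and 660 in wild type, and the BH3 gene Bad was at -0.79. In the list of tetraspanins, annexins and related genes, Cd151, a tetraspanin partner of laminin-binding integrins, fell 5.30-fold, from 2194 to 414; its other probe sets at 500 gave -0.69, -0.20, 0.35 and 0.37, so the fall rests on 1 probe set.

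The remaining large falls were of genes with varied roles. Ythdf1, a reader of methylated adenosine in RNA, fell 2.49-fold from 1342 to 538, with -0.57 and -0.03 for other probe sets. Nsmce4a, of the SMC5/6 complex, fell 2.43-fold, the tRNA-splicing endonuclease subunit Tsen15 2.40-fold, the sialic acid pathway phosphatase Nanp 2.34-fold and the bromodomain gene Brd8 2.33-fold. Dnajc9, a histone co-chaperone, fell 2.30-fold from 817 to 356, the arginine methyltransferase Prmt7 2.24-fold from 948 to 424, the kinase gene Map3k12 2.23-fold from 617 to 277, the ubiquitin-like modifier gene Sumo3 2.22-fold from 1678 to 755 and the cation-chloride cotransporter-family gene Slc12a9 2.15-fold. Of these, Dnajc9, Prmt7, Sumo3, Nsmce4a and Nanp were past 1.5-fold lower in wild type too, with Prmt7 at -1.05. The wild-type signals of Nsmce4a, 405 and 252, were under 500, so it did not count there. Brd8 and Map3k12 were at 0.03 and -0.02 in wild type. In tri-CH1, a dimmer probe set under 500 gave -0.06 for Brd8, 0.10 for Nsmce4a and 0.56, the other way, for Map3k12.

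**Figure D4:**
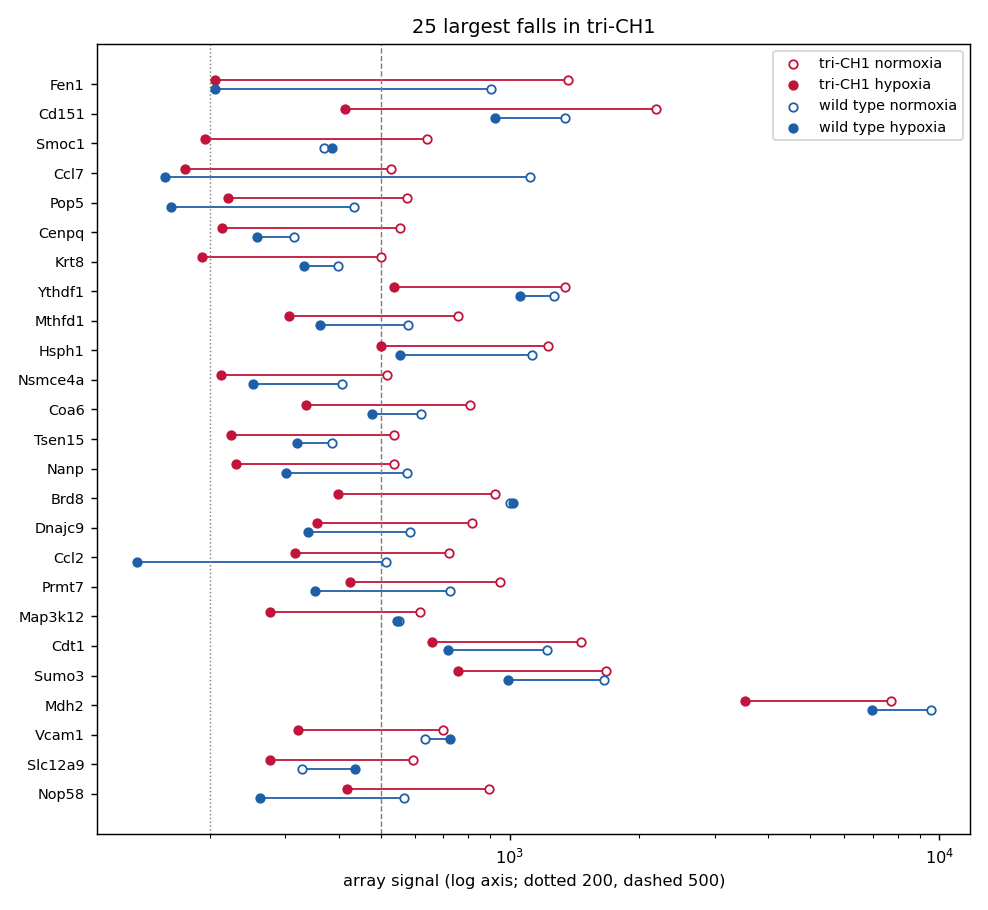
Signals of the 25 largest tri-CH1 falls on a log axis, 1 line per genotype (red tri-CH1, blue wild type), from normoxia (open circle) to hypoxia (filled circle). Fen1 ended at 206 and 205 on the hypoxia arrays, while the wild-type signals of Brd8 and Map3k12 nearly coincide.

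Wild type gave a side-by-side for the called genes, which were chosen on the tri-CH1 arrays, so a smaller wild-type value follows in part from the choice. Of the 96 rises, 75 were bright enough in wild type: 40 were past 2-fold, 14 between 1.5-fold and 2-fold, 16 smaller in the same direction and 5 opposite, none of these by 1.5-fold. Their median log2 change was 1.25 in tri-CH1 and 1.02 in wild type. The 40 shared rises are 41.7% of the tri-CH1 rises and 48.8% of the wild-type rises outside the list of known HIF targets. Of the 43 falls, 27 were bright enough in wild type, with 9 past 2-fold, 9 between 1.5-fold and 2-fold, 7 smaller and 2 opposite, and medians of -1.16 and -0.78. The 9 shared falls are 20.9% of the tri-CH1 falls and 18.4% of those in wild type. Among the called genes that counted in both genotypes, those furthest above 0 by the tri-CH1 minus wild-type difference in log2 change were Bola2 at 1.69, Pmepa1 at 1.61, Lce1h at 1.55 or higher, Adipor2 at 1.46, Fkbp8 at 1.32, Slc35e4 at 1.28, Dlk1 at 1.16, Bok at 1.09, Ccl7 at 1.07 and Dusp1 at 1.02. In Ccl7 this is a smaller fall and both hypoxia signals were under the floor. In each of these 10 genes except Dlk1, the normoxia signal was higher in wild type than in tri-CH1. Furthest below 0 were Cd151 at -1.86, Krt19 at -1.62 or lower, Vcam1 at -1.31, Brd8 at -1.25, Map3k12 at -1.14, Ythdf1 at -1.06, Coa6 at -0.89, the peptide hormone gene Apln at -0.80, Mdh2 at -0.68 and the magnesium transporter gene Slc41a2 at -0.65, whose tri-CH1 normoxia signal of 188 was under the floor. No difference was tested.

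Probe sets of the same gene were compared within the arrays. Another probe set was kept where either tri-CH1 array reached 500. Some passed only through the array on which the gene was high, such as that of Plekha2, from 339 to 1402. The filter thus favoured the same direction, and the counts below follow from it in part. Of the 96 rises, 29 had another probe set that reached 500, and of these 44 probe sets 16 were past 2-fold in the same direction, 30 past 1.5-fold, 41 had the same sign and 0 were opposite by 1.5-fold; their median was 0.83. Of the 43 falls, 9 had such a probe set, and of these 14 probe sets 1 was past 2-fold in the same direction, 5 past 1.5-fold, 11 had the same sign and 1 was opposite, that of Mthfd1, with a median of -0.47. The brighter signal was under 1000 for 34 of 43 falls and for 46 of 96 rises. The dimmer signal was under 200 for 12 rises and 3 falls. The probe set used was of a kind that may bind related transcripts (suffix x or s) for 15 rises and 8 falls.

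**Figure D5:**
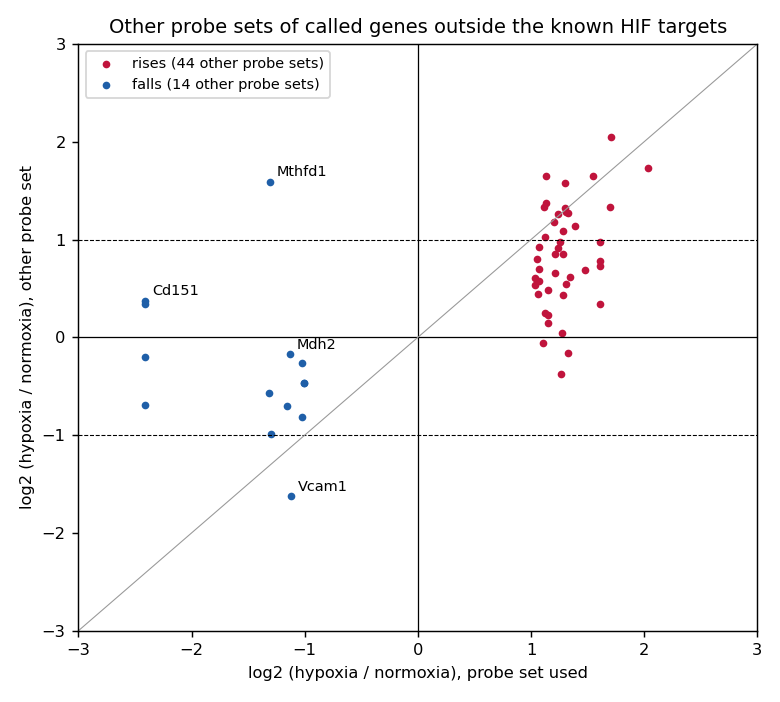
Log2 change from normoxia to hypoxia in tri-CH1 of the probe set used (x axis) and of each other probe set of the same gene with a signal of 500 or more (y axis), 1 point per other probe set, for called genes outside the known HIF targets. Of the points for rises 41 of 44 lie above 0, while those for falls scatter from -1.63 (a bound) for Vcam1 to 1.59 for Mthfd1.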

How the data were processed

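RNA of 4 cultures was hybridised to 1 Affymetrix array each. The deposited values are linear signal intensities, 1 per probe set; per the labels, the authors used the Affymetrix statistical algorithm and scaled each array to a target of 500. The software version is not given in the sources used here. Of 22690 probe sets, 20380 had 1 gene symbol in the platform annotation, 691 several, 1555 none and 64 were controls; 20351 were found in the gene reference by gene number, with 0 symbols changed. A gene was represented by its brightest probe set on average over the 4 arrays. A floor of 200 was set, the brighter of the compared arrays had to reach 500, and calls were by size, at 2-fold. Members and lists were chosen with earlier results of these data known; 37 list symbols were updated through synonyms. Named genes were the 25 largest rises and 25 largest falls outside the known HIF targets, up to 8 called members of each list or else its largest changes, the 10 differences furthest from 0 on either side between genotypes, check genes, and genes whose probe sets disagree. The call rule was run on simulated signals with changes placed in bright genes only, so it cannot show how well changes in dim genes are recovered. Promoter windows came from RefSeq, GRCm38.p6. The p300 gene is not analysed here. The alternatives were other floors, minimum signals, normalizations and probe-set rules. Tools were Python 3.11.15, numpy 2.4.6, pandas 2.3.3, matplotlib 3.10.9, R 4.3.3 and limma 3.58.1.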

Additional observations from a re-analysis of the deposited data

Results flagged for a closer look

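Bola2 and Pmepa1, both outside the known HIF targets, were past 2-fold higher in tri-CH1 and had a change of opposite sign, under 1.5-fold, in wild type; neither difference was tested. Bola2, which encodes a protein of iron-sulfur cluster handling, had a tri-CH1 minus wild-type difference of 1.69, from a log2 change of 1.15 in tri-CH1 and -0.54 in wild type, while its other probe sets at 500 gave 0.15, 0.48 and 0.23 in tri-CH1 and -0.71, -0.96 and -0.33 in wild type. Pmepa1 had a difference of 1.61, from 1.11 and -0.50, and its other probe set at 500 gave -0.05 and -0.17.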

How the results depend on the processing

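The count of rises stayed within 1.5 times of 139, and of 96 outside the known HIF targets, under the alternatives tried, except that a floor of 400 left 62 outside the targets and a minimum signal of 1000 left 86 in all and 50 outside them. The count of 43 falls, all outside the targets, was less stable: it was 18 with a floor of 400, 70 with a minimum of 250, 9 with a minimum of 1000, 28 with cyclic loess, 26 with scaling to the same median, 27 with plain _at probe sets and 75 with every probe set on its own. The other settings gave 41 with quantile normalization, 31 with the mean over probe sets, 42 with the probe set brightest on the tri-CH1 arrays and 42 with the mean over probe sets at 500, which was added after seeing the data. Rises were 76.4% of calls as deposited, 70.8% with a minimum of 250, 73.3% with every probe set on its own, 85.4% with median scaling, where the median of all genes was 0.04, 90.5% with a minimum of 1000 and 84.7% with a floor of 400. Of the 96 rises 47, and of the 43 falls 10, were past 2-fold in every setting in which they counted. With a floor of 400, 34 rises and 25 falls dropped under 2-fold. That floor drops each gene whose brighter signal cannot reach 2-fold over it, whatever its change. Its counts, and those of 47 and 10, therefore reflect brightness in part. A floor of 100 or none could change no call, because the brighter signal had to reach 500. With a scaling the median changed sign for the RNA exosome, translation factors, autophagy and lysosome, tetraspanins and annexins, and lipid uptake lists. Leaving out an array was not possible with 1 per condition. No paired analysis was possible because no test was run.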

Other observations

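Probe sets with several gene symbols or none were not used above. Of these, 622 reached 500 on a tri-CH1 array, and 16 were 2-fold or more higher and 8 lower in hypoxia.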
